A study of Mus musculus with 2 samples.

Results

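The genes described here encode MHC class II molecules, the invariant chain, the peptide-loading proteins H2-DM and H2-O, and the transactivator Ciita. They were the 9 genes H2-Aa, H2-Ab1, H2-Eb1, Cd74, H2-DMa, H2-DMb1, H2-DMb2, H2-Oa and Ciita, chosen by name, of 34400 genes listed in the expression tables. Each of the 9 had 1 row in each table. The tumours grew from CT26, an established colon carcinoma line of BALB/c mice, for which the design text gives both the caecal junction and subcutaneous growth, leaving the site unclear. From a tumour volume of 50 to 100 mm³, mice received a control antibody (named anti-IgG) or SLC7A11-Ab, directed at the light chain of the transporter that exchanges cystine for glutamate, each at 10 mg/kg every 2 days. Each group was 1 single-cell library made with a 10x Genomics 3' kit, and the number of mice behind a library, their strain and their age are not given in the sources used here.

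MHC class II molecules carry peptides from endocytosed protein to the cell surface, where CD4 T cells read them. An alpha and a beta chain (H2-Aa with H2-Ab1 for I-A, H2-Ea with H2-Eb1 for I-E) assemble on the invariant chain Cd74, which is cut down in endosomes until H2-DM exchanges its last fragment for a peptide. H2-O restrains H2-DM. Dendritic cells and B cells make these proteins constitutively, whereas macrophages, fibroblasts and many tumour cells do so after interferon gamma, which induces Ciita. Ciita binds no DNA itself and acts through the RFX complex and NF-Y seated on the X and Y boxes of class II promoters.

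Of 13910 deposited control barcodes (129044329 unique molecular identifiers, UMIs) 12326 were kept as single cells, at a median of 7052 UMIs. Of 12153 antibody barcodes (143658800 UMIs) 10897 were kept, at a median of 7201. The libraries shared 39 barcode sequences. Libraries also differed in genes unrelated to antigen presentation: Cox5a, a respiratory chain subunit, had 18.5 and 861 CPM (UMIs of a gene per 1000000 UMIs) in control and antibody macrophages and 11.5 and 580.2 CPM in tumour cells, and the part of such library differences in the values below was not tested. The labels also name the cells as goblet cells. Of goblet cell genes, the mucin Muc2 had a UMI in 4 cells of each library and the trefoil factor Tff3 in 0 control and 2 antibody cells. With 1 library per group there is no replicate check and no test of a difference between groups. The 95% intervals given are exact (Clopper-Pearson for shares, Poisson for levels, conditional binomial for ratios) and cover counting error only.

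Cells were assigned to gates by UMIs of marker genes, none of them an MHC gene. Macrophages were gated on the complement genes C1qa, C1qb and C1qc, monocytes on Ly6c2, Ccr2, Vcan, Ms4a4c, F10 and Chil3, and dendritic cells on Xcr1 and Clec9a (type 1), Cd209a, Clec10a and Mgl2 (type 2) or Ccr7 and Ccl22 (mature). Fibroblasts were gated on Col3a1, and tumour cells on Krt8 or Krt18 with at most 1 UMI of Ptprc (CD45) and of Y-linked genes and fewer than 5 C1q UMIs per 10000, so that cells rich in C1q cannot enter it. The gates held 803 control and 884 antibody macrophages, 130 and 542 monocytes, 35 and 119 dendritic cells, 62 and 87 fibroblasts, and 2503 and 1576 tumour cells. Some 8370 control and 6378 antibody cells were in no gate. Markers not used for gating were highest in their own gate in both libraries for 5 of 6 macrophage, 2 of 2 monocyte, 8 of 10 dendritic and 7 of 7 fibroblast genes. This held for 0 of 3 tumour genes, for which Krt7, Krt19 and Epcam were each at or below 0.09 CPM in the tumour gate of both libraries. The tumour gate therefore rests on its keratins, on Y-linked genes at 0.57 and 1.95 CPM against 125 and 122 in macrophages, and on Ptprc at 1.2 and 3.92 CPM.

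The promoters of the class II genes are shown because most members were higher together in several gates. RefSeq promoters (build GRCm38.p6, the C57BL/6J reference, from 250 bases before to 50 after the transcript start) were matched for 6 of the 9 members. H2-Aa, H2-Eb1, H2-DMb1, H2-DMb2 and H2-Oa held an X-box-like CNNNNAAC followed after 26 or 27 bases by the Y box core GATTGG, and both promoters of H2-DMa held no such pair. This pattern was written after the members' promoters had been read, so the 5 of 6 is a description. Searched on both strands, the pair occurred in 47 of 32851 promoters (0.143%), CNNNNAAC alone in 81.6% and GATTGG alone in 16.1%. A match shows letters in a window, not that a factor binds there. In the stretches below, printed 5′ to 3′ on the gene's strand, capitals mark the X-box-like octamer and the Y box core. All 5 lie upstream of the RefSeq transcript start.
H2-Aa, chr17:34287857-34287922, minus strand: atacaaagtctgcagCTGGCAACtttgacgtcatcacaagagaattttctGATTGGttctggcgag
H2-Eb1, chr17:34305758-34305822, plus strand: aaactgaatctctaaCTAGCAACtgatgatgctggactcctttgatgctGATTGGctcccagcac
H2-DMb1, chr17:34153079-34153144, plus strand: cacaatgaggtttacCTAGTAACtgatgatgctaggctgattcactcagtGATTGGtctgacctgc
H2-DMb2, chr17:34145108-34145173, plus strand: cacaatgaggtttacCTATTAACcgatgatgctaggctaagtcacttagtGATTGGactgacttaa
H2-Oa, chr17:34092285-34092350, plus strand: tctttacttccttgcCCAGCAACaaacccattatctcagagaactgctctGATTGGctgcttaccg
The genes H2-Oa, H2-DMa, H2-DMb2, H2-DMb1, H2-Ab1, H2-Aa and H2-Eb1 lie in this order on chromosome 17, from chr17:34092340 to chr17:34316674 in the GENCODE annotation of GRCm38. GENCODE starts H2-DMb2 at chr17:34143307 and H2-DMb1 at chr17:34153072, so their stretches lie inside those gene spans. Its start of H2-Oa, chr17:34092340, falls within the H2-Oa stretch. Ciita lies at chr16:10480059-10528418. The spacing of the boxes was 26 bases in H2-Eb1 and 27 in the other four. The octamer began 84 bases before the RefSeq transcript start in H2-Aa and 126 bases before it in H2-DMb2. H2-DMb1 and H2-DMb2 are paralogs whose stretches look alike, and whether counting divided reads between them was not tested.

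In macrophages the 3 class II chains were 5.02-fold to 8.86-fold higher in the antibody library, and only Ciita among the other members came close to them. H2-Aa, the I-A alpha chain, stood at 1521 CPM (95% interval 1479 to 1563) in control and 7633 CPM (95% interval 7563 to 7704) in antibody macrophages, 5.02-fold (95% interval 4.88 to 5.17) higher in the antibody library. H2-Ab1, the I-A beta chain, stood at 412 and 3654 CPM, 8.86-fold (95% interval 8.39 to 9.37) higher. H2-Eb1, the I-E beta chain, stood at 773 and 5078 CPM, 6.57-fold (95% interval 6.31 to 6.84) higher. The antibody library was the higher one for each of the 3 chains, and no intervals overlapped.

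The difference lay both in how many macrophages had chain RNA and in how much each had. To compare cells of unequal depth, each cell was thinned to 1000 UMIs, which left out 38 control and 35 antibody macrophages. After thinning, H2-Aa had a UMI in 27.5% (24.3 to 30.8) of 765 control and 86.5% (84 to 88.7) of 849 antibody macrophages. Without thinning the shares were 36.1% and 96%. T cells, which should lack class II in mice, gave thinned H2-Aa shares of 1.67% (0.202 to 5.89) in 120 control and 15.2% (12.5 to 18.1) in 673 antibody cells. Median depths were 3690 and 5992.5 UMIs in macrophages and 1553 and 2535 in T cells. Macrophage shares were thus well above the T cell shares of the same library. The T cell share was itself higher in the antibody library. It can reflect free RNA or mixed cells, and its source was not tested. Of the 673 antibody T cells, 4 had 10 or more summed H2-Aa, H2-Ab1 and H2-Eb1 UMIs per 1000.

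**Figure D1:**
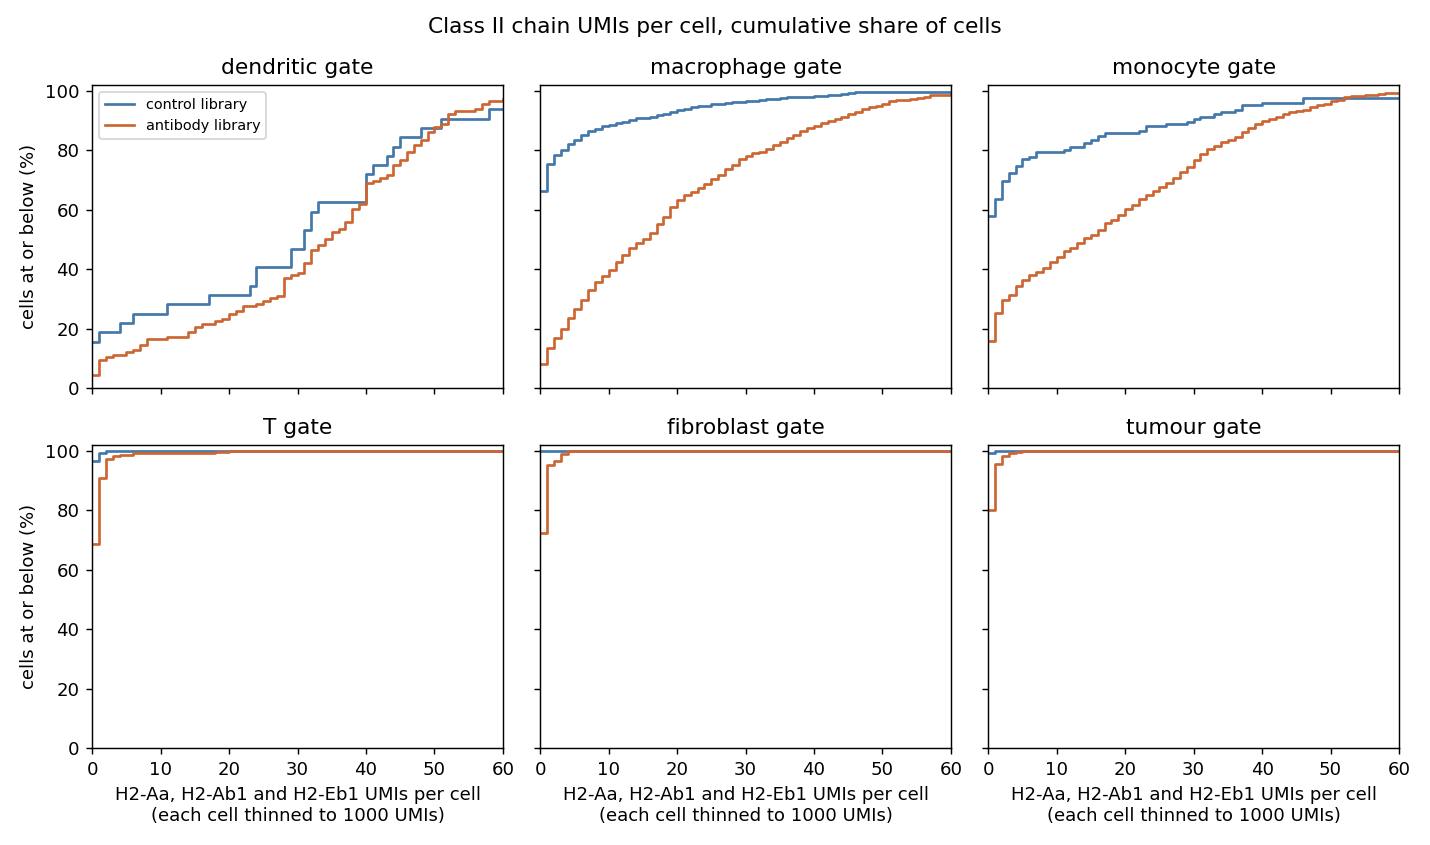
Cumulative share of cells (vertical axis, percent) by the summed H2-Aa, H2-Ab1 and H2-Eb1 UMIs per cell (horizontal axis, up to 60), each cell thinned to 1000 UMIs, for 6 gates and both libraries. Control macrophages start at 66.4% of cells with 0 such UMIs and antibody macrophages at 8.24%, whereas dendritic cells have medians of 31 and 34.5.

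The plot of chain UMIs per cell shows the whole distribution. Among control macrophages 66.4% had 0 chain UMIs per 1000 and 11.9% (9.69 to 14.4) had 10 or more. Among antibody macrophages 8.24% had 0 and 62.3% (59 to 65.6) had 10 or more. The highest macrophages of either library were alike, at 66 and 71 chain UMIs per 1000. The 90th percentile was 13 in control and 43 in antibody macrophages. Control macrophages therefore held a small group of cells with as much chain RNA as the antibody library's cells, beside a majority with none detected at this depth.

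Macrophages with an H2-Aa UMI had the other chains, Cd74 and the H2-DM genes more often than those without. Of 210 thinned control macrophages with an H2-Aa UMI, 67.6% (60.8 to 73.9) had H2-Eb1 and 44.3% (37.5 to 51.3) had H2-DMb1. Of the 555 without an H2-Aa UMI, 3.78% (2.36 to 5.73) had H2-Eb1 and 4.14% (2.64 to 6.15) had H2-DMb1. Ciita UMIs were found in 5.24% (2.64 to 9.18) of the first group and in 0 of the second, where the limit set by 3 counts is a share of 0.541%. H2-DMa was found in 56.7% (49.7 to 63.5) against 30.8% (27 to 34.8), and H2-Oa in 0 of either group. In the antibody library, of 734 macrophages with and 115 without an H2-Aa UMI, 92.9% (90.8 to 94.7) and 27% (19.1 to 36) had H2-Eb1, and 48.6% (45 to 52.3) and 5.22% (1.94 to 11) had H2-DMb1. Most macrophages with H2-Aa thus had no H2-DMb1, H2-DMb2 or Ciita UMI detected at this depth, taking each gene alone. Macrophages with a UMI of Cxcl9, an interferon gamma induced chemokine, made up 29 of the thinned control cells and 442 of the thinned antibody cells. H2-Aa was detected in 44.8% (26.4 to 64.3) of those control cells and in 26.8% (23.6 to 30.1) of control macrophages without Cxcl9. In the antibody library the shares were 95.7% (93.4 to 97.4) and 76.4% (72 to 80.5). Antibody macrophages without Cxcl9 thus had H2-Aa more often than control macrophages with it, with intervals that do not overlap.

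Cd74, the invariant chain (chr18:60803848-60812652, GRCm38), was the member found in most macrophages after thinning. Its level was 3123 CPM (95% interval 3063 to 3183) in control and 9846 CPM (95% interval 9766 to 9926) in antibody macrophages, 3.15-fold (95% interval 3.09 to 3.22) higher. Its thinned share was 52.3% (48.7 to 55.9) and 94% (92.2 to 95.5), and its share without thinning 70.4% and 99.2%. The library difference of Cd74 was smaller than that of any of the 3 chains.

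Among the peptide-loading genes the 2 subunits of H2-DM differed. H2-DMb1, a beta chain of H2-DM, stood at 184 CPM in control and 629 in antibody macrophages, 3.41-fold (95% interval 3.13 to 3.72) higher. H2-DMa, the only alpha chain of H2-DM, stood at 473 and 655 CPM, 1.39-fold (95% interval 1.31 to 1.47) higher. H2-DMb2, the alternative beta chain, lay between them with 66.9 and 136 CPM, 2.03-fold (95% interval 1.75 to 2.37) higher. The interval of H2-DMa excludes a 2-fold difference and that of H2-DMb2 includes it. H2-Oa, the alpha chain of H2-O, had only 3 control and 8 antibody UMIs in all macrophages, and a difference was not detectable at this depth.

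Ciita, the transactivator, was scarce and also higher in the antibody library. It had 27 UMIs in 803 control macrophages and 309 in 884 antibody macrophages, or 8.18 and 52 CPM, 6.25-fold (95% interval 4.29 to 9.8) higher. A UMI was found in 2.62% and 23% of cells without thinning and in 1.44% (0.72 to 2.56) and 5.18% (3.79 to 6.9) after thinning. T cells had 0 control and 12 antibody Ciita UMIs, the latter 5.43 CPM.

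**Figure D2:**
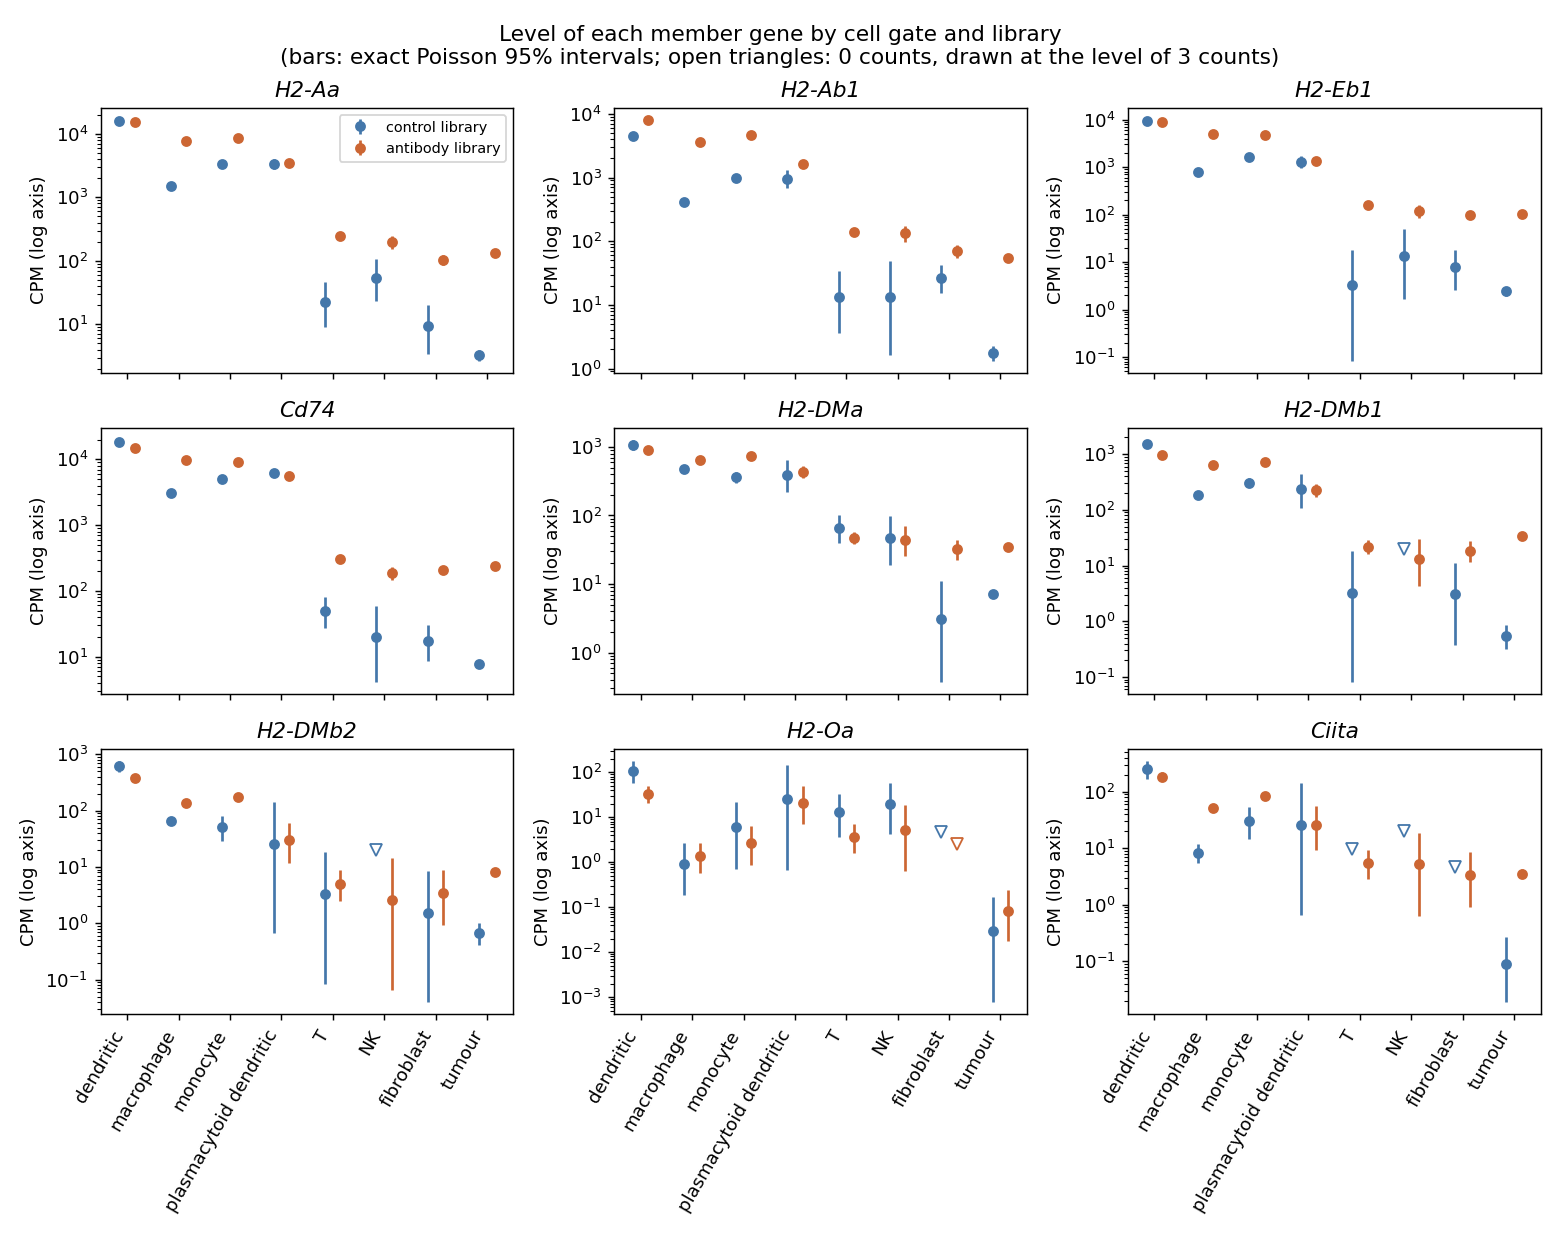
Level of each of the 9 genes in CPM (vertical log axes) in 8 gates (horizontal axes) of the control and antibody libraries, with exact Poisson 95% intervals and open triangles for 0 counts drawn at the level of 3 counts. H2-Aa lies at 16034 and 15239 CPM in dendritic cells of the control and antibody libraries, and at 1521 and 7633 CPM in their macrophages.

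As a list, 7 of the 8 members with at least 20 summed counts in macrophages were at least 2-fold higher in the antibody library, against 9.41% of the 11313 genes measured there. None was at least 2-fold lower, against 4.63%. The median log2 ratio (antibody over control) of the 8 was 2.05, with all genes at -0.15. H2-DMa was the member under 2-fold. Macrophage identity genes moved in both directions, with C1qa log2 ratios of -0.46, C1qc of 1.05 and the apolipoprotein Apoe of 2.46. Markers of dendritic cells (7 genes) summed to 37.9 CPM in control and 122 CPM in antibody macrophages, against 1834 and 1640.4 CPM in the dendritic gate, with Cd209a, Ccr7 and Ccl22 at 0 in control macrophages and Flt3 at 0 in antibody macrophages. The part of these cells in the macrophage values was not tested.

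Monocytes, which are C1q-low precursors of macrophages, showed the same direction from a higher control level. H2-Aa stood at 3368 CPM (95% interval 3174 to 3570.3) in control and 8662 CPM (95% interval 8529 to 8796) in antibody monocytes, 2.57-fold (95% interval 2.42 to 2.73) higher. H2-Ab1 was 4.68-fold (95% interval 4.2 to 5.24) higher, from 987 to 4627 CPM. H2-Eb1 was 2.91-fold (95% interval 2.67 to 3.18) higher, from 1671 to 4864 CPM. For all 3 chains the antibody monocytes were the higher group, and control monocytes exceeded control macrophages.

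Cd74 was the member under 2-fold in monocytes, at 5024 and 9133 CPM, 1.82-fold (95% interval 1.73 to 1.91) higher. The H2-DM genes were 2.02-fold (H2-DMa), 2.32-fold (H2-DMb1) and 3.36-fold (H2-DMb2) higher, the last on 17 control UMIs. Ciita had 10 control and 160 antibody UMIs, 2.74-fold (95% interval 1.52 to 6.09) higher. H2-Oa had 2 and 5 UMIs. In all, 7 of 8 measured members were at least 2-fold higher, against 10.6% of all genes, and 0 were at least 2-fold lower, against 10.9%. The members' median log2 ratio was 1.41 and that of all genes -0.19.

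Per cell, monocytes split as macrophages did. After thinning (126 control and 538 antibody cells), 57.9% of control and 16% of antibody monocytes had 0 chain UMIs, and 20.6% (13.9 to 28.8) and 57.4% (53.1 to 61.7) had 10 or more. The Cd74 share was 57.1% (48 to 65.9) and 84% (80.6 to 87), or 62.3% and 89.7% without thinning. Macrophage markers (9 genes) summed to 2309 and 2802 CPM in control and antibody monocytes, against 24742 and 25925 CPM in macrophages, and all 9 were detected. Monocytes were also restricted to cells with 0 C1q UMIs, a setting added after the values were seen. There 5 of 8 measured members were at least 2-fold higher and the members' median log2 ratio was 1.15. The share and median of all genes were not taken in this subset, so these values have no background beside them.

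Dendritic cells had the highest class II levels of the 5 main gates in the control library and showed little library difference. H2-Aa stood at 16034 CPM (95% interval 15359.9 to 16731) in 35 control cells and 15239 CPM (95% interval 14943 to 15538) in 119 antibody cells, a log2 ratio of -0.07 (95% interval -0.14 to -0.01). H2-Eb1 stood at 9492 and 8880.1 CPM, a log2 ratio of -0.10 (95% interval -0.18 to -0.01). H2-Ab1 was the exception among the chains, at 4459 and 7895 CPM, a log2 ratio of 0.82 (95% interval 0.70 to 0.95). The ratios of H2-Aa and H2-Eb1 were close enough to 0 that other scalings or the kept doublets turned their sign.

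The other members were at or below the control level in dendritic cells. Cd74 had a log2 ratio of -0.34 (95% interval -0.41 to -0.28), from 18736 to 14755 CPM. H2-DMb1 was at -0.65 (95% interval -0.87 to -0.41) and H2-DMb2 at -0.68 (95% interval -1.04 to -0.29). H2-DMa was at -0.23 (95% interval -0.49 to 0.05), an interval that includes 0. Ciita was at -0.44 (95% interval -0.99 to 0.17), on 33 and 123 UMIs, so that a difference was not detectable at this depth. H2-Oa, with 14 and 22 UMIs or 106 and 33.1 CPM, was at -1.69 (95% interval -2.70 to -0.59). Of 9 measured members, 0 were at least 2-fold higher, against 12.4% of all genes, and 1 (H2-Oa) was at least 2-fold lower, against 8.3%. Their median log2 ratio was -0.34 and that of all genes -0.13. Detection was near complete, with thinned Cd74 shares of 96.9% (83.8 to 99.9) and 98.3% (93.9 to 99.8) and unthinned shares of 94.3% and 100%.

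The dendritic gate pools kinds of cells whose numbers differed between libraries. There were 18 control and 32 antibody type 1 cells, 9 and 56 type 2 cells and 8 and 18 mature cells, and the remaining antibody cells carried markers of more than one kind. Type 1 cells, which specialise in cross-presentation, had log2 ratios of -0.16 for H2-Aa, 0.85 for H2-Ab1 and -0.31 for Cd74. Type 2 cells, the main presenters to CD4 T cells, had -0.14, 0.77 and -0.55. Mature cells went the other way, with 1.45 (95% interval 1.00 to 1.97), 2.12 (95% interval 1.31 to 3.20) and 0.68 (95% interval 0.33 to 1.07), on 40, 11 and 71 control UMIs. Plasmacytoid dendritic cells, gated apart on Siglech, Ccr9 and Klk1, gave 0.07, 0.73 and -0.15 in 13 and 73 cells. Of these 4 kinds, the mature cells were the one in which all 3 genes were higher in the antibody library with intervals above 0. Other markers differed too in these mature cells, with B cell markers (6 genes) at 749 and 116 CPM. T cell markers (6 genes) stood there at 272 and 16.5 CPM and macrophage markers (9 genes) at 68.1 and 462 CPM. These sums rest on 1 to 28 UMIs, 8 of the 9 macrophage markers were at 0 in the control cells, and the part of such cells was not tested.

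The order of levels among gates differed between libraries. In the control library H2-Aa was ordered dendritic cells, B cells (6368 CPM (95% interval 4945 to 8073), 8 cells), then monocytes and plasmacytoid dendritic cells (3368 and 3364 CPM, with overlapping intervals), then macrophages, and in the antibody library dendritic cells, B cells (9779 CPM (95% interval 7957 to 11894), 8 cells, overlapping with monocytes), monocytes (8662 CPM), macrophages (7633), then plasmacytoid dendritic cells (3533). H2-Ab1 showed a library difference of its own. Its log2 ratio exceeded that of H2-Aa in macrophages (3.15 against 2.33), monocytes (2.23 against 1.36), dendritic cells (0.82 against -0.07), plasmacytoid dendritic cells (0.73 against 0.07) and B cells (1.38 against 0.62). H2-Ab1 made up 6.28% (5.96 to 6.61) of all member UMIs in control and 13.2% (13 to 13.4) in antibody macrophages, and 8.53% (7.88 to 9.21) and 16% (15.6 to 16.4) in dendritic cells. In tumour cells and fibroblasts the order was the opposite, with H2-Ab1 at 4.94 and 1.36 against H2-Aa at 5.34 and 3.36. These H2-Ab1 ratios rest on 58 and 17 control UMIs. In tumour cells H2-Ab1 made up 7.36% (5.64 to 9.41) of member UMIs in control and 8.83% (8.46 to 9.21) in antibody, with overlapping intervals.

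**Figure D3:**
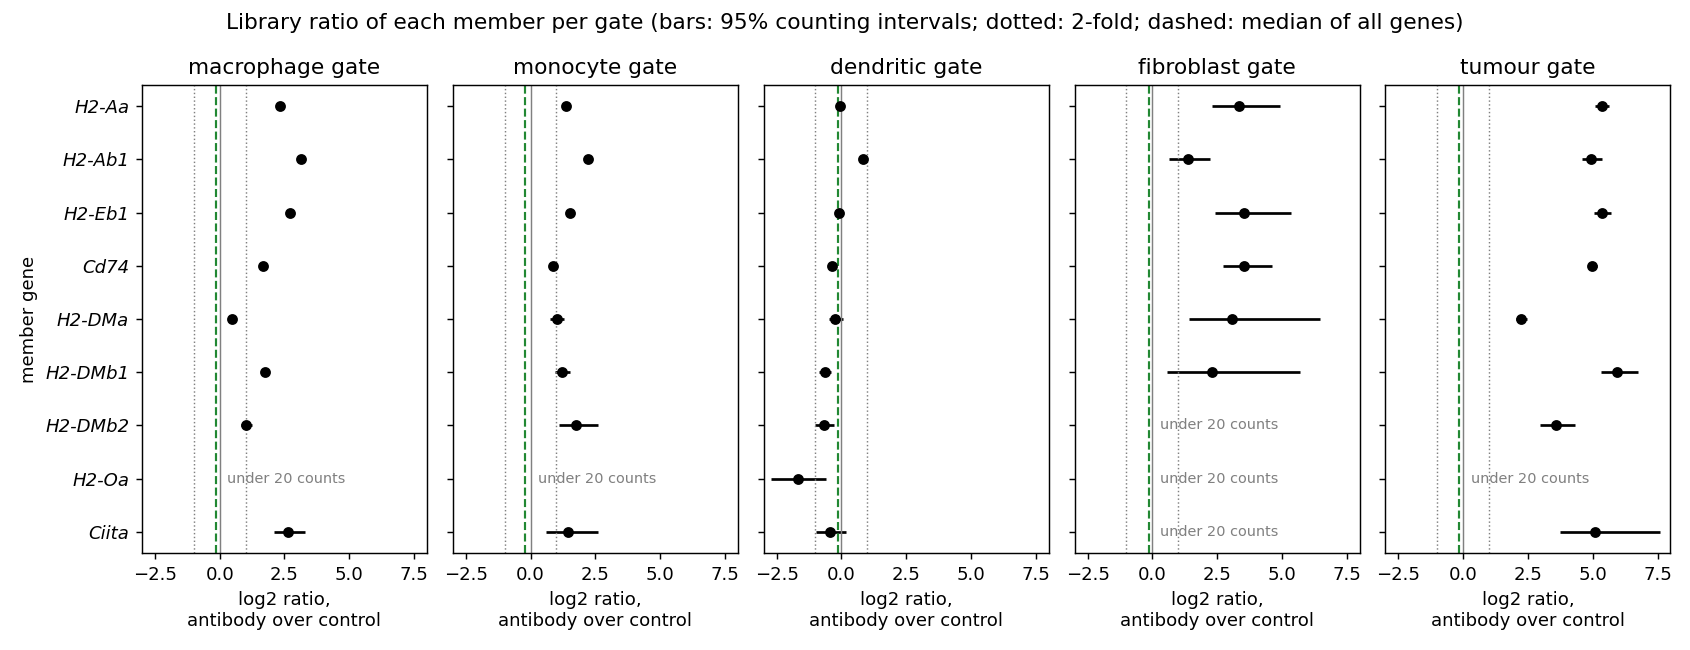
Log2 ratio of the antibody over the control library (horizontal axes) for each member gene (rows) in 5 gates, with 95% counting intervals, dotted lines at 2-fold, and a dashed line at the median of all genes. Members with at least 20 counts, the only ones plotted, lie to the right of 0 in macrophages, monocytes, fibroblasts and tumour cells and around or left of 0 in dendritic cells, where H2-Ab1 is the exception.

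Tumour cells had class II RNA close to nil in the control library and at a low level in the antibody library. H2-Aa had 108 UMIs in 2503 control cells and 4736 in 1576 antibody cells, or 3.24 and 132 CPM, a log2 ratio of 5.34 (95% interval 5.07 to 5.64). Cd74 stood at 7.68 and 243 CPM, a log2 ratio of 4.98 (95% interval 4.80 to 5.17). H2-DMb1 had 18 and 1232 UMIs, a log2 ratio of 5.95 (95% interval 5.32 to 6.75). These antibody levels were 1.73% (H2-Aa), 2.46% (Cd74) and 5.45% (H2-DMb1) of the antibody macrophage level.

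The remaining members pointed the same way in tumour cells. H2-Ab1 and H2-Eb1 had log2 ratios of 4.94 and 5.36, H2-DMb2 of 3.58 and H2-DMa of 2.24. Ciita had 3 control and 128 antibody UMIs, or 0.09 and 3.56 CPM, with a fold of 34.1 (95% interval 13.2 to 194). H2-Oa had 1 and 3 UMIs. All 8 measured members were at least 2-fold higher, against 11.1% of all genes, and 0 at least 2-fold lower, against 4.18%, and their median log2 ratio was 5.03 with all genes at -0.18. Tumour cells of the antibody library were also deeper, with medians of 11613 and 19504 UMIs.

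Free RNA gives UMIs in cells that do not make a gene, and the T and NK gates were used as an approximate measure of it. T cells of the antibody library had Cd74 at 305 CPM, NK cells at 185, fibroblasts at 207 and tumour cells at 243. In the control library the same gates had 49, 20.2, 17.1 and 7.68 CPM. Thinned to 1000 UMIs, Cd74 had a UMI in 18.3% (16.4 to 20.3) of antibody tumour cells and 17.8% (15 to 20.9) of antibody T cells. The corresponding H2-Aa shares were 10.2% (8.76 to 11.8) and 15.2% (12.5 to 18.1). Unthinned Cd74 shares were 84.8% and 37.9% at median depths of 19504 and 2535 UMIs. At 1000 UMIs the tumour share of Cd74 did not exceed that of T cells beyond counting error, and that of H2-Aa was below it. Shares at equal depth and UMIs per cell weigh free RNA differently, and the amount of free RNA per droplet was not measured. Per cell without thinning, antibody tumour cells held a mean of 5.53 Cd74 UMIs and 2.67 UMIs of the 9 macrophage markers, and T cells 0.927 and 0.964. The part of free RNA in these values was not tested. T cells themselves had 5 of 6 measured members at least 2-fold higher in the antibody library, against 10.8% of all genes, and NK cells 4 of 5, against 11.4%, with log2 ratios for Cd74 of 2.59 and 2.99. H2-DMa was the measured member under 2-fold in both, at -0.52 and -0.15.

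The tumour gate differed from the T gate in other measures. In antibody T cells the 9 macrophage markers had a median of 1.49% of their macrophage level and 8 class II members (without H2-Oa) 3.56%. In antibody tumour cells the medians were 0.481% and 3.85%. In control tumour cells they were 0.136% and 0.368%, and in antibody fibroblasts 0.963% and 2.3%. Within the tumour median the genes differed. H2-Aa, H2-Ab1, H2-Eb1 and Cd74 lay between 1.47% and 2.46%, and the H2-DM genes and Ciita between 5.24% and 6.85%. The 8 members also spread in antibody T cells, from 3.09% to 10.4%, and in antibody NK cells, from 1.88% to 10%. Ciita was the highest in both, on 12 and 2 UMIs. Because the tumour gate itself limits C1q, the marker medians were also taken over the 6 markers other than C1q. They were 0.542% in antibody tumour cells, 1.82% in T cells and 1.27% in fibroblasts. The gate's limits on C1q and Ptprc can leave out cells rich in the other macrophage markers too. These medians are therefore not free of the gate either. H2-DMb1 made up 5.63% (5.33 to 5.94) of member UMIs in antibody tumour cells, 2.33% (1.72 to 3.07) in T cells, 2.27% (2.2 to 2.34) in macrophages and 2.01% (1.86 to 2.16) in dendritic cells. The tumour share of H2-DMb1 lay above the intervals of the other three.

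**Figure D4:**
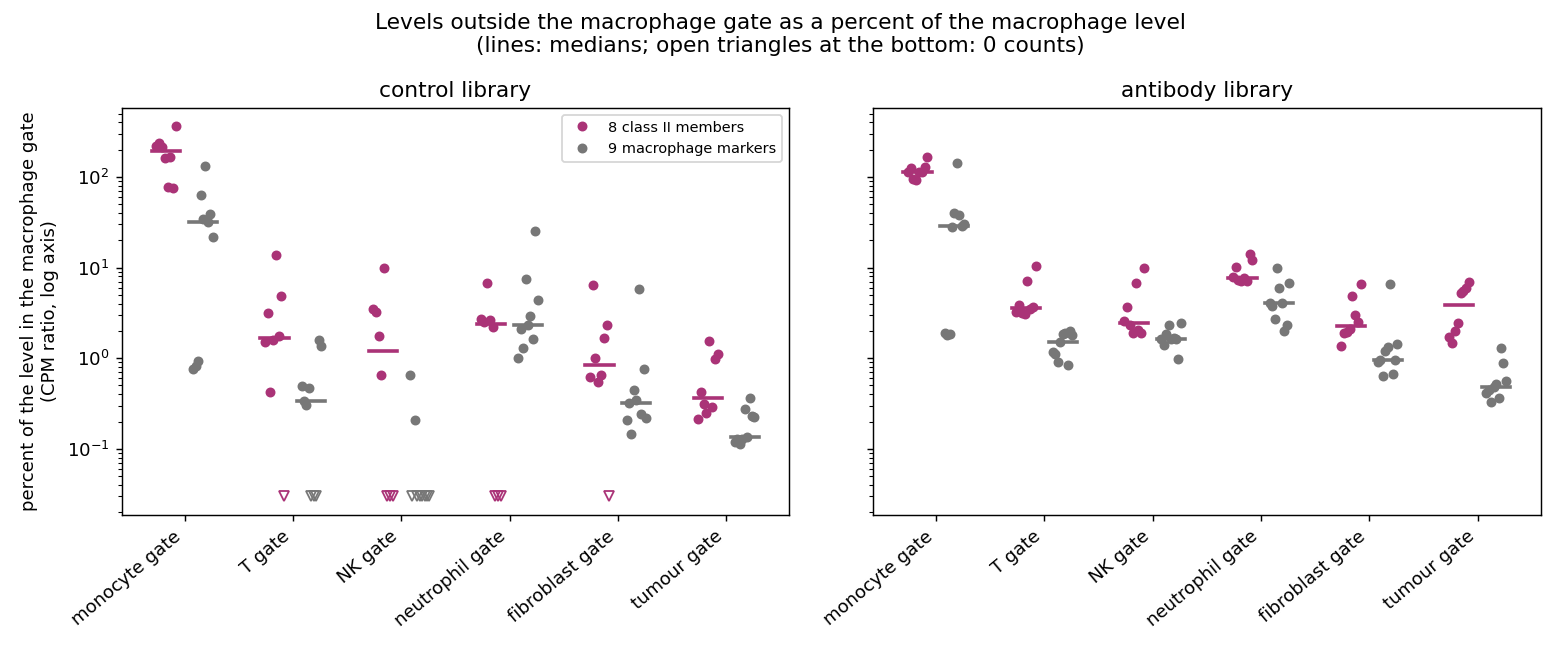
Level of 8 class II members (all but H2-Oa) and 9 macrophage markers in 6 gates, as a percent of the level of the same gene in the macrophage gate of the same library (vertical log axis), with lines at the medians and open triangles for 0 counts. In antibody tumour cells the member median is 3.85% and the marker median 0.481%, and in antibody T cells they are 3.56% and 1.49%.

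Class II UMIs were also spread unevenly over tumour cells. Thinned to 5000 UMIs, 1516 antibody tumour cells had a mean of 1.12 Cd74 UMIs and a variance of 3.63, a variance to mean ratio of 3.26. The summed C1q genes had a mean of 0.402 and a ratio of 1.09, close to the 1 of random sampling, in a gate that leaves out cells rich in C1q. Cd74 reached 5 or more UMIs in 5.34% of cells, 10 or more in 13 cells, and a maximum of 22. In the control library 1 of 2313 cells reached 5. Cells with a UMI of H2-DMb1 had Cd74 in 77% (70.0 to 83) of 174 cases and cells without one in 47.2% (44.5 to 50.0) of 1342. For a Ciita UMI the Cd74 shares were 66.7% (43 to 85.4) of 21 and 50.4% (47.9 to 53) of 1495, with overlapping intervals. For a C1q UMI they were 53.2% (48.6 to 57.7) and 49.5% (46.4 to 52.6), also overlapping. Cd74 detection thus differed with H2-DMb1 beyond counting error, and a difference with C1q was not detectable. The gate limits C1q and not H2-DMb1, so these outcomes cannot be set against each other. Tumour-gate cells with 0 C1q UMIs, a subset added after the values were seen (1848 control and 422 antibody cells), had a thinned Cd74 share of 18.6% in the antibody library.

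Fibroblasts had class II RNA at a low level, higher in the antibody library. H2-Aa had 6 control and 122 antibody UMIs, or 9.33 and 103 CPM, a log2 ratio of 3.36 (95% interval 2.31 to 4.94). Cd74 had 11 and 244 UMIs, a log2 ratio of 3.53 (95% interval 2.73 to 4.62). H2-Ab1 was the least different, with 17 and 82 UMIs and a log2 ratio of 1.36 (95% interval 0.63 to 2.24). Thinned Cd74 shares were 19.5% (11.8 to 29.4) of 87 antibody cells and 0 of 62 control cells, where the limit set by 3 counts is 4.84%, and unthinned shares were 69% and 6.45%. The interval of the antibody share includes the T cell share of 17.8%, and per cell without thinning the fibroblasts held a mean of 2.8 Cd74 UMIs at a median depth of 11484 UMIs. The part of free RNA was not tested here either. Ciita had 0 and 4 UMIs, H2-DMb2 1 and 4 and H2-Oa 0 in both, and 6 members were measured. All 6 were at least 2-fold higher, against 10.1% of all genes, and 0 were at least 2-fold lower, against 5.52%. Their median log2 ratio was 3.21, with all genes at -0.14. Macrophage markers were higher there too, at 80.9 CPM in control and 263 CPM in antibody fibroblasts for the 9 genes, all detected in both. T cell markers (6 genes) had 1 and 103 UMIs in these fibroblasts, or 1.56 and 87.3 CPM. Ptprc stood at 1.56 and 12.7 CPM. The part of such cells in the fibroblast values was not tested. Across macrophages, monocytes, fibroblasts and tumour cells, 4 of the 6 members measured in all 4 gates were at least 2-fold higher in each, against 4.18% of 6718 genes. The exceptions were H2-DMa in macrophages and Cd74 in monocytes.

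Most H2-Aa UMIs sat in few cells. In the control library macrophages, 6.51% of kept cells, held 52.9% of H2-Aa UMIs and dendritic cells, 0.284% of cells, held 22.4%. In the antibody library macrophages held 44.4%, monocytes 15.9% and dendritic cells 9.89%. Ciita was distributed differently, with 32.7% of its control UMIs in dendritic cells and 26.7% in macrophages, and 9.97% and 25% in the antibody library. Cells in no single gate held 25.7% of control and 39.2% of antibody Ciita UMIs, and tumour cells 2.97% and 10.4%. H2-DMa was less tied to the myeloid gates than H2-Aa, with 8.97% of control UMIs in tumour cells against 1.14% for H2-Aa, and 30.6% (27.4 to 33.9) of the member UMIs of control tumour cells against 7.21% (6.86 to 7.56) in control macrophages.

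Other genes of the pathway were taken from a list of 26, of which 24 were in the tables. In macrophages 5 of 23 measured were at least 2-fold higher, against 9.41% of all genes, and 0 at least 2-fold lower, against 4.63%. In tumour cells the counts were 6 of 22, against 11.1%, and 0, against 4.18%. Of the genes upstream of Ciita, Irf1 and Ifngr2 were higher in both gates. Irf1, the interferon-induced factor that acts on the Ciita promoter, had log2 ratios of 1.84 (95% interval 1.63 to 2.06) in macrophages and 2.60 (95% interval 2.51 to 2.69) in tumour cells. Ifngr2, a chain of the interferon gamma receptor, had 1.66 (95% interval 1.37 to 1.98) and 1.88 (95% interval 1.70 to 2.06). In dendritic cells Irf1 was at 1.37 (95% interval 0.63 to 2.31).

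Rfx5, a DNA-binding subunit of the RFX complex, had 5 and 35 UMIs in macrophages, a log2 ratio of 1.84 (95% interval 0.60 to 3.67), and 0.26 (95% interval -0.13 to 0.65) in tumour cells. It was the only 1 of 7 RFX and NF-Y list genes (Creb1 included) past 2-fold in macrophages, and 0 of 7 were in tumour cells, where 9.41% and 11.1% of all genes were at least 2-fold higher. Of 5 processing genes 0 were at least 2-fold higher in macrophages. With so few genes these counts are near the shares of all genes. Ctss, the protease that trims the invariant chain, was at 0.21 (95% interval 0.18 to 0.24) there and at 1.84 (95% interval 1.65 to 2.04) in tumour cells, where it had 8.43 and 30.2 CPM against 4559 and 5282 in macrophages. Cd83, which stabilises surface class II, was at -0.25 in macrophages and 2.10 (95% interval 1.32 to 3.05) in tumour cells, on 15 and 71 UMIs. Among other class II genes H2-Ea, the I-E alpha chain, followed the members, with 1069 and 5772 CPM in macrophages and log2 ratios of 2.43 (95% interval 2.38 to 2.48) there, -0.08 in dendritic cells and 5.31 in tumour cells. H2-Ob, the beta chain of H2-O, had 5 and 17 UMIs in macrophages, a log2 ratio of 0.82 (95% interval -0.58 to 2.71), and 0 and 1 UMIs in tumour cells.

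The genes whose pattern over 16 points (8 gates in 2 libraries) was most like the mean of H2-Aa, H2-Ab1, H2-Eb1 and Cd74 were ranked by Pearson's r of log2(CPM + 1) among 13125 genes. They were H2-Ea (r = 0.98), Plbd1 (0.94), Cd36 (0.94), Aif1 (0.94) and Htr7 (0.93). Among members outside that mean, r was 0.97 for Ciita, 0.96 for H2-DMb1, 0.95 for H2-DMb2, 0.92 for H2-DMa and 0.43 for H2-Oa. The points share libraries, depth and free RNA, so these values describe likeness only.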

How the data were processed

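The authors deposited, for each library, a table of UMI counts that is not normalized. The submitters' processing notes name Cell Ranger 7.2.0, Seurat and the build mm10, with no role for each. The annotation release is not given in the sources used here. Cells with under 200 genes, under 500 UMIs or 20% or more mitochondrial UMIs were left out. Scrublet (scanpy 1.11.5) scored doublets, and the top 0.8% per 1000 cells were removed, 1537 control (11.1%) and 1164 antibody (9.65%) cells. Gates required, for example, 10 C1q UMIs and 30 per 10000 for macrophages and 30 Col3a1 UMIs and 20 per 10000 for fibroblasts. Counts were summed per gate and library. Log2 ratios used a prior of 0.5 counts and genes with 20 or more summed counts. The scripts were tested on simulated data. Free RNA was not subtracted. The 9 members, the gene lists and the gates were chosen with earlier results of these data known. Named genes were the 9 members, the pathway genes past 2-fold in macrophages or tumour cells, Irf1, Rfx5, Ctss and H2-Ob whatever their values (1 listed gene is not reported here), and the 5 genes of most similar pattern. Cox5a and Cxcl9 were added after their values were seen. Alternatives covered filters, doublets, gates, scaling and thinning.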

Additional observations from a re-analysis of the deposited data

Results flagged for a closer look

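In 5 members the library difference pointed in opposite directions in macrophages and dendritic cells, with 95% counting intervals that exclude 0 in both. The share of all genes that do the same was not counted, so the 5 is a description only. The log2 ratio (antibody over control) was 2.33 in macrophages and -0.07 in dendritic cells for H2-Aa, 2.72 and -0.10 for H2-Eb1, and 1.66 and -0.34 for Cd74. For the H2-DM beta chains it was 1.77 and -0.65 (H2-DMb1) and 1.02 and -0.68 (H2-DMb2). H2-DMa (0.47 and -0.23) and Ciita (2.64 and -0.44) also had opposite signs, but with dendritic intervals that include 0, and H2-Oa had under 20 counts in macrophages. The difference between the gates was not tested, since each group is 1 library. The dendritic values of H2-Aa and H2-Eb1 changed sign with the processing, and the 35 control and 119 antibody dendritic cells differed in their mix of kinds.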

How the results depend on the processing

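No paired analysis was possible because each group is 1 library, and no replicate could be left out. The median log2 ratio of the members in macrophages (2.05) was 2.19 without doublet removal, 2.20 with median-of-ratios scaling, 1.77 as a mean over scaled cells and 1.77 with no count minimum. In monocytes (1.41) it was 1.60 without doublet removal, and in dendritic cells (-0.34) -0.52 with doubled marker thresholds. In tumour cells (5.03) it was 4.37 with doubled thresholds, 4.16 with no exclusion between gates, 4.57 without doublet removal and 5.60 when no keratin was required, a setting added after seeing the data. A minimum of 100 counts left 3 fibroblast members, all 3 at least 2-fold higher, since fewer genes are then measured. The share of all genes at this minimum was not counted. In dendritic cells H2-Aa turned to 0.0495 without doublet removal, 0.00508 with median-of-ratios scaling and 0.11 as a mean over scaled cells, and H2-Eb1 to 0.0313 without doublet removal and 0.0694 as a mean over scaled cells. These were the 5 of 375 recomputed member ratios counted as reversed, and the cause was not tested. A change of sign was counted only where the counting interval of the main ratio excluded equal levels. Changes of sign in the other ratios were not counted. The Cd74 share of antibody tumour cells (18.3% at 1000 UMIs) was 29.0% at 2000 UMIs and 22.2% with no keratin required.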
